A study of Mus musculus with 2 samples.

Results

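Genes that drive the cell cycle and DNA replication were examined in mouse peritoneal macrophages in which HDAC9, a class IIa histone deacetylase, had been targeted by siRNA. The list of 41 genes was set by gene name, with earlier results of these data known, out of 18193 genes on the arrays. A value was read for 40 of them; Ccnb1 was not analysed here. Cells from male C57BL/6 mice carried either a control siRNA or the HDAC9 siRNA for 48 h before total RNA was taken. Each group had 1 Affymetrix array, so no difference could be set against a spread between cultures and no test was possible. The labels do not say how many mice gave the cells or whether they were pooled.

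A cell that leaves rest first makes D-type cyclins, which with CDK4 and CDK6 inactivate the RB protein and free E2F factors to switch on genes of DNA synthesis. The MCM helicase, loaded on replication origins, and the clamp PCNA then copy the genome, and cyclin B with CDK1, Polo and Aurora kinases carry the cell through mitosis. Resting cells keep many of these genes off through RB family proteins and the DREAM complex, which bind promoters at E2F elements and at the cell cycle homology region (CHR). Resident macrophages of the peritoneum are known to renew themselves by local division, while most of them rest at any time.

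The promoters of some of these genes carry the letters of such elements more often than promoters in general. RefSeq promoters (build GRCm38.p6) were found for 34 of the 41 genes; Ccnd1, Ccnd2, Ccne2, Mcm4, Ccna2, Foxm1 and Aurkb are named only. The 250 bases before each start were searched on both strands for the E2F words TTTCCCGC, TTTCGCGC, TTTGGCGC and TTTGCCGC, for the CHR words TTTGAA and TTCGAA, and for the CCAAT box, CCAAT. An E2F word stood in 13.2% of the 38 promoters of these genes and in 1.86% of all 32851 promoters in the table. It was found in Mcm5, Mcm6, Mcm7, Cdk2 and Cdk1. A CHR word stood in 8 of 15 promoters of G2/M and mitosis genes (53.3%), against 17.1% of all promoters, and a CCAAT box in 12 of those 15 (80.0%), against 33.8%. In the 14 promoters of replication and S phase genes a CHR word was no more common than in general (2, or 14.3%). A CCAAT box stood in 10 of these 14 (71.4%). The 9 promoters of G1 and inhibitor genes held 0 E2F and 0 CHR words, and 22.2% of them a CCAAT box. A match is a run of letters and not a measured binding site. The following 4 windows show a replication gene with E2F words, a gene with all 3 kinds of word, a mitotic gene with a CHR word, and Melk, the gene of the list with the largest lower value. Capitals mark the words in either orientation; a pair of E2F words overlaps in Mcm6, and no words of different kinds overlap in these windows.
Mcm6, chr1:128359706-128359955, minus strand: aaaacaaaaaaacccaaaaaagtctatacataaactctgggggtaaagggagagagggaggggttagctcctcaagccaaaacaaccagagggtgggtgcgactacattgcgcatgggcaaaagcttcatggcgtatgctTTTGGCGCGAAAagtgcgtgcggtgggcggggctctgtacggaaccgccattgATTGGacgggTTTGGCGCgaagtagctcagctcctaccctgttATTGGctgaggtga
Cdk1, chr10:69352913-69353162, minus strand: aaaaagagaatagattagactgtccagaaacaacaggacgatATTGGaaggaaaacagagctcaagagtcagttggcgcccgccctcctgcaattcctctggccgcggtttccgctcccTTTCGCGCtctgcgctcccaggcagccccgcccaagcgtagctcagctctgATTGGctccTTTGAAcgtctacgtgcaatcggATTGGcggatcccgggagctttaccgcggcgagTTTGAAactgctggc
Cdc20, chr4:118437344-118437593, minus strand: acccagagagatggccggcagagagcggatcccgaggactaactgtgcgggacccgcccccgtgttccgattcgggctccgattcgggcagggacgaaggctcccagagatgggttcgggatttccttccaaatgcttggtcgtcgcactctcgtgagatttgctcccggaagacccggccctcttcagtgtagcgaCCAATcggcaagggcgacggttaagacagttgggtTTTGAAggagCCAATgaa
Melk, chr4:44300667-44300916, plus strand: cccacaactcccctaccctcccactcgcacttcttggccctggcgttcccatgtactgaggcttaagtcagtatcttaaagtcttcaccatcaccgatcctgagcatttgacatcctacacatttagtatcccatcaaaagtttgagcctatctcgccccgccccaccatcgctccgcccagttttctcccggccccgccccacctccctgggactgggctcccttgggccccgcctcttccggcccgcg
The Melk window held 0 of these words, which says only that these letters are not in it.

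Most of the list was measurable on both arrays. Background was set by 80 probe sets for olfactory and vomeronasal receptors, whose 95th percentile, a log2 signal of 6.34, served as the floor. Of the 40 genes with a value, 39 (97.5%) were above the floor with the control siRNA and 38 (95%) with the HDAC9 siRNA. Over all 18193 genes the shares were 61.6% and 63.9%. For 35 of the 40 genes (87.5%) both signals were at least 2-fold over the floor, against 51.0% of all genes, and for 29 (72.5%) they were at least 4-fold over it, against 41.7%. The 5 genes short of 2-fold were Tyms, Foxm1, Melk, Bub1b and Kif11. As a measure of proliferation, transcripts of every step from G1 cyclins to mitosis were thus detected in both cultures, Mki67 and Top2a among them. A bulk signal does not give the share of dividing cells: fewer cells with a transcript and less RNA per cell cannot be told apart.

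The list did not move as a group. Of 39 genes above the floor on at least 1 array, 18 (46.2%) were higher with the HDAC9 siRNA than with the control siRNA, a log2 ratio above 0, and 21 were lower; 54.1% of all genes had a ratio above 0. Their median was -0.03, beside 0.03 for all 12090 genes above the floor on at least 1 array. Past 2-fold were Foxm1, higher, and Melk, lower. These 2 genes are 5.13% of the 39, where 1.81% of all genes were past 2-fold (1.44% higher and 0.372% lower). Ratios of different probe sets of a gene scatter by 0.29 log2 units, measured over 5671 genes by subtracting the ratio of the second brightest probe set from that of the brightest, taking the standard deviation and dividing it by the root of 2. Within that scatter of 0 were 29 of the 39 genes (74.4%), beside 65.7% of all genes. Of the 10 genes outside it, 3 were higher (Foxm1, Cdkn2c and Cdkn1a) and 7 lower (Melk, Bub1, Ccnd1, Mcm2, Bub1b, Mki67 and Cdk2). Of all genes, 22.2% were higher and 12.1% lower beyond the scatter.

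**Figure D1:**
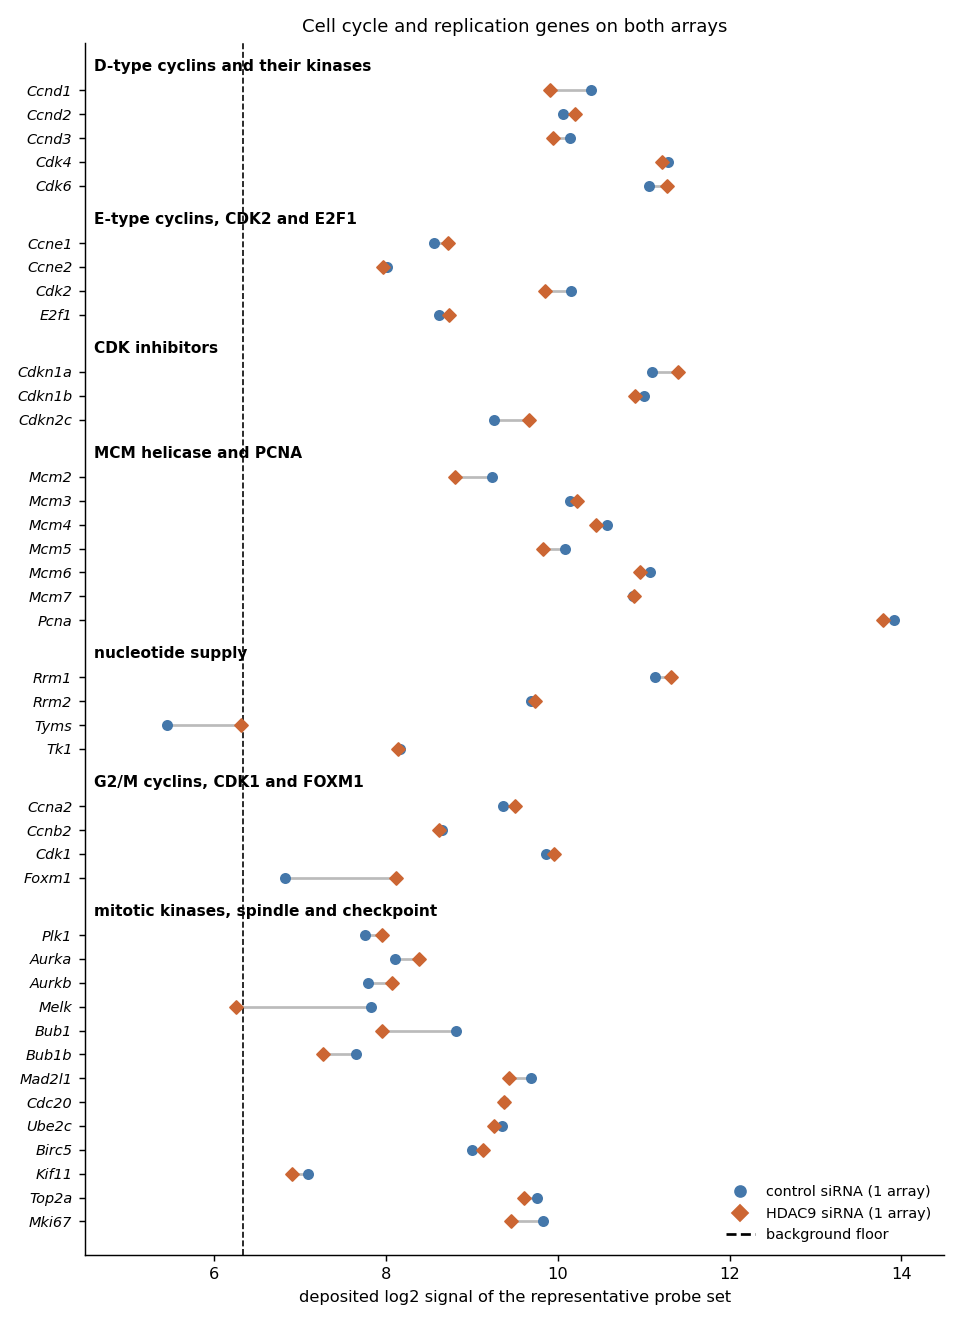
Deposited log2 signal (x axis) of the representative probe set of each of 40 genes, grouped by role, on the control siRNA array (circles) and the HDAC9 siRNA array (diamonds), with the background floor at 6.34 (dashed line). Symbols of most genes lie close together; Foxm1 at 6.82 and 8.12 and Melk at 7.83 and 6.26 are farthest apart among genes above the floor, and signals of different genes come from different probes and have no order.

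The siRNA target itself was close to the floor. Hdac9 read 6.88 on the log2 scale with the control siRNA and 5.69, below the floor, with the HDAC9 siRNA, a drop of at least 1.46-fold. With a stricter floor of 6.92, the 99th percentile of the receptors, both signals were below background and no drop can be given. A dimmer probe set of the gene read 5.99 and 5.94, below the floor both times. Macrophage identity was readable on both arrays: 10 of 11 macrophage markers were above the floor on both, among them Adgre1, Csf1r, Cd68 and Lyz2, and Timd4, a receptor of resident peritoneal macrophages, was below it on both. The summed linear signals of the 11 macrophage markers were 86926 with the control siRNA and 84465 with the HDAC9 siRNA. Markers of other cells were present too, those of stroma at sums of a similar order. All 7 fibroblast and stromal markers and all 8 mesothelial markers were above the floor on both arrays, and their summed linear signals were 50839 and 9273 with the control siRNA and 65761 and 10622 with the HDAC9 siRNA. Single markers did not all follow these sums. Of the stromal markers 6 of 7 were higher, Col1a1 by 3.49-fold and Col3a1 by 2.75-fold, while 5 of 8 mesothelial markers were lower, with a median of -0.17, Msln at -1.11 and Krt7 at -0.99. Above the floor on the control siRNA and the HDAC9 siRNA array were 2 and 1 of 7 T cell markers, 1 and 2 of 6 B cell markers, and 2 and 2 of 5 neutrophil markers. Their summed linear signals were 441 and 267 for T cells, 2042 and 2407 for B cells and 971 and 1004 for neutrophils. Of the T and B cell markers, Cd3d, Cd3e, Cd3g, Cd2, Cd4, Cd79a, Cd79b, Ms4a1 and Blk were below the floor on both arrays. Cd22 made up most of the B cell sums, at 10.87 on the log2 scale with the control siRNA and 11.10 with the HDAC9 siRNA. Thy1 read 7.74 and 7.03. Cd8a was above the floor only with the control siRNA (7.13), and Pax5 only with the HDAC9 siRNA (6.74). The part of stromal, mesothelial and other cells in the cell cycle signals was not tested.

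Foxm1, which encodes a forkhead factor that switches on genes of G2 and mitosis, read 6.82 on the log2 scale with the control siRNA and 8.12 with the HDAC9 siRNA. It was 2.46-fold higher with the HDAC9 siRNA (log2 ratio 1.30). All 4 probe sets of Foxm1 were higher on the HDAC9 siRNA array in the deposited values: the others read 5.03 and 6.56, 3.10 and 6.16, and 1.81 and 3.07. Of those 3, the first was above the floor on the HDAC9 siRNA array and the rest were below it on both, so the median over probe sets, after flooring, gave a log2 ratio of 0.11.

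Melk encodes a kinase of dividing and progenitor cells that is known to phosphorylate FOXM1. Its only probe set read 7.83 on the log2 scale with the control siRNA and 6.26, just below the floor, with the HDAC9 siRNA. Melk was therefore at least 2.80-fold lower with the HDAC9 siRNA (log2 ratio -1.49, a bound). A stricter floor, the 99th percentile of the receptors, gave a bound of -0.90, short of 2-fold. The 2 genes past 2-fold thus stood on opposite sides, and each came close to background on 1 array.

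**Figure D2:**
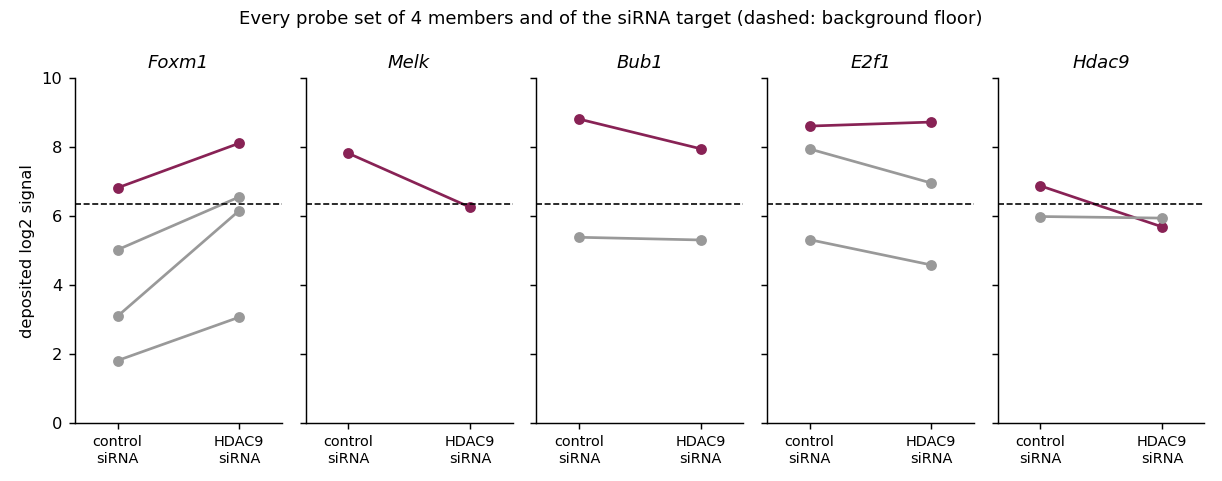
Deposited log2 signal (y axis) of every probe set of Foxm1, Melk, Bub1, E2f1 and Hdac9 on the control siRNA and HDAC9 siRNA arrays, each line a probe set, with the representative one in dark red and the background floor dashed. All 4 Foxm1 lines slope up, the Melk line ends at 6.26 just below the floor, and the lines of E2f1 go both ways.

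D-type cyclins and their kinases, which start the cycle in response to growth factors, were above the floor on both arrays in 5 of 5 genes, with 0 past 2-fold and a median log2 ratio of -0.07. Ccnd1 (cyclin D1) read 10.38 on the control siRNA array and 9.91 on the HDAC9 siRNA array by its brightest probe set, a log2 ratio of -0.47. Its 2 other probe sets were at -0.13 and -0.07, so all 3 were lower but only the brightest exceeded the scatter. Ccnd2 (cyclin D2) was slightly higher by all 7 of its probe sets, with log2 ratios from 0.10 to 0.37. Ccnd3 was at -0.19, with a dimmer probe set at -0.59 as a bound. Cdk4 was at -0.07 and Cdk6 at 0.21, and the probe sets of both kinases disagreed in sign.

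The next step, in which cyclin E with CDK2 commits the cell to replicate, showed 0 of 4 genes past 2-fold and a median log2 ratio of 0.03, which was -0.03 after loess and -0.04 after quantile normalization. Cdk2 read 10.16 on the control siRNA array and 9.86 on the HDAC9 siRNA array (-0.30). Ccne1 was at 0.16 by its brightest and -0.16 by its second probe set, and Ccne2 was at -0.05. The gene of the activator E2F1 gave conflicting values: its brightest probe set read 8.62 and 8.73 (0.12), while its second, also above the floor on both arrays, read 7.95 and 6.96 (-0.99). Its dimmest probe set was below the floor on both. E2f1 thus has no settled direction in these data.

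The CDK inhibitors act as brakes on these kinases. Of the 3 listed, 2 (66.7%) had log2 ratios above 0, beside 54.1% of all genes, with 0 past 2-fold. Cdkn1a, which encodes p21 and is a well-known p53 target, read 11.10 and 11.40 on the control siRNA and HDAC9 siRNA arrays (0.30), and its second probe set gave the same log2 ratio of 0.30. Cdkn2c, which encodes the CDK4 and CDK6 inhibitor p18, read 9.26 and 9.66 by its only probe set (0.40, or 1.32-fold higher). Cdkn1b, for p27, was at -0.11 by its brightest probe set, within the scatter. Its second probe set was at -0.56, but it read 6.90 on the control siRNA array and 6.34 on the HDAC9 siRNA array. Both signals were under the stricter floor, close to background. Cdkn1a and Cdkn2c were therefore higher, while the direction of Cdkn1b was not clear. The signs of the 3 representative ratios were the same after centring, quantile normalization and loess.

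The MCM and PCNA genes were slightly lower more often than higher, though most were within the scatter. Of the 6 MCM subunits and PCNA, 5 of 7 had a ratio below 0 (6 of 7 after centring on the median). The share above 0 was 28.6%, beside 54.1% of all genes. Past 2-fold were 0, and the median was -0.13, or -0.10 after loess. Mcm2, a helicase subunit, read 9.24 on the control siRNA array and 8.80 on the HDAC9 siRNA array (-0.44), but its second probe set was at 0.06. Mcm5 was at -0.26 and -0.45 by its probe sets above the floor on both arrays, Mcm6 at -0.12 and -0.29, and Mcm4 at -0.13 and -0.21, so these 3 subunits were lower by each such probe set. Mcm7 was at 0.01 and Pcna at -0.13. Mcm3 was at 0.08 by its brightest probe set, but its 4 others ran from -0.72 to 0.02, so its direction is unsettled. Apart from Mcm2, the representative ratios of this group were within the scatter.

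The enzymes that supply deoxynucleotides were nearly level. Rrm1, the large subunit of ribonucleotide reductase, read 11.13 and 11.32 on the control siRNA and HDAC9 siRNA arrays (0.19), with its second probe set at 0.24. Its small subunit Rrm2, made mainly in S phase, was at 0.05 by its brightest probe set and at -0.18 and -0.13 by its others. The thymidine kinase gene Tk1 was at -0.02. Tyms, which encodes thymidylate synthase, was below the floor on both arrays by all of its 4 probe sets and was the only such gene of the 40; its brightest read 5.46 and 6.32.

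The cyclins and kinase of mitotic entry were as level as the supply enzymes. Cdk1, the kinase that drives mitosis, read 9.87 on the control siRNA array and 9.95 on the HDAC9 siRNA array (0.09). Its partners Ccna2 and Ccnb2 were at 0.14 and -0.03, and the second probe set of Ccna2 was at 0.42.

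Among 13 mitotic kinases, spindle and checkpoint genes, 5 had a ratio above 0 (38.5%, beside 54.1% of all genes) and 8 below 0. The median was -0.15. After centring, quantile normalization or loess the counts were 4 and 9. These rescalings also lowered the all-gene median, from 0.027 to 0.0016, 0.0049 and 0.017. Bub1, a kinase of the spindle checkpoint, was lower by more than 1.5-fold: it read 8.82 on the control siRNA array and 7.96 on the HDAC9 siRNA array (-0.86, or 1.82-fold lower). Its other probe set was below the floor on both arrays. Bub1b, which encodes the checkpoint protein BUBR1, read 7.65 and 7.27 (-0.39), and its other probe sets were at -0.36 and -0.26, all of them above the floor on both arrays. Another checkpoint gene, Mad2l1, was at -0.25, within the scatter. All 3 were thus lower, by unequal amounts.

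The kinases of mitotic progress were within the scatter. Plk1 read 7.75 with the control siRNA and 7.96 with the HDAC9 siRNA (0.21), and Aurka 8.11 and 8.39 (0.28). Aurkb was at 0.29 by its brightest and -0.18 by its second probe set. For Cdc20 and Ube2c, which serve the anaphase-promoting complex, the ratios were 0.01 and -0.09. Birc5, for survivin, was at 0.13, and the spindle motor gene Kif11 was at -0.19 with its other probe sets at 0.11 and 0.36.

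Of the common markers of proliferating cells, Mki67 was lower beyond the scatter and Top2a was not. Mki67, which encodes the Ki-67 antigen, read 9.82 on the control siRNA array and 9.46 on the HDAC9 siRNA array by its only probe set (-0.37, or 1.29-fold lower). Top2a, for the topoisomerase that untangles chromosomes, read 9.76 and 9.60 (-0.15). Its second probe set above the floor on both arrays was at 0.38. That probe set read 6.36 on the control siRNA array and 6.74 on the HDAC9 siRNA array. Both signals were under the stricter floor, close to background. Past 1.5-fold in all were 3 of the 39 genes (7.69%), Foxm1, Melk and Bub1, against 10.6% of all genes. They were 1 higher and 2 lower, where 7.81% of all genes were higher and 2.79% lower by that much. Without Foxm1 and Melk, the ratios of the other 37 ran from -0.86 to 0.40.

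**Figure D3:**
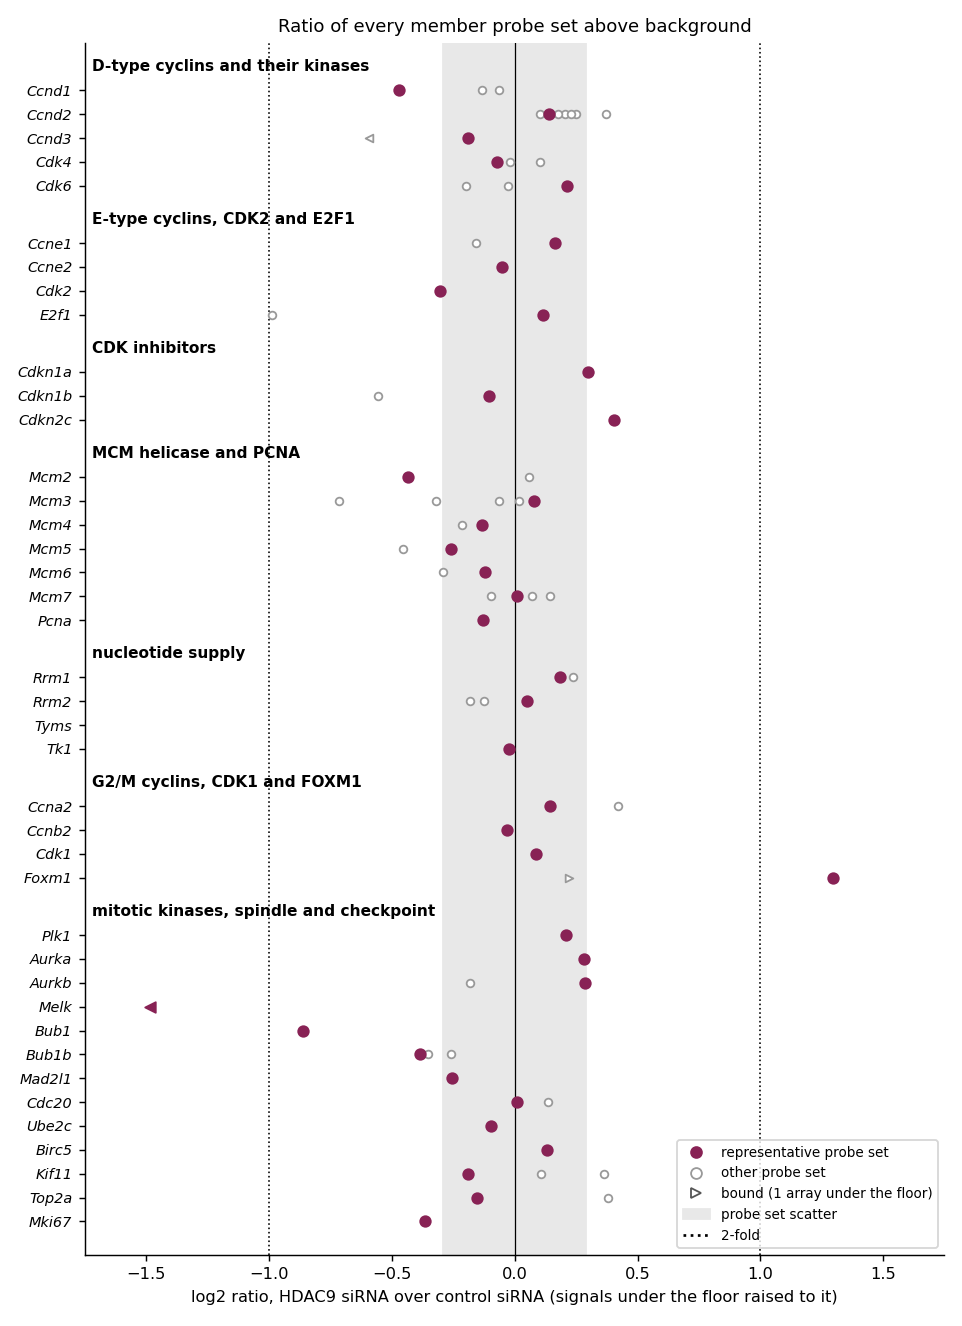
Log2 ratio, HDAC9 siRNA over control (x axis), for every probe set above background of each gene, by role; filled symbols are the representative probe sets, open ones the others, triangles are bounds, the grey band is the probe set scatter of 0.29 and dotted lines mark 2-fold. Foxm1 at 1.30 and Melk at -1.49 lie past the dotted lines, and 29 of 39 filled symbols lie in the band.

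Several probe sets gave a check within the arrays. Of 22 genes with 2 or more probe sets above the floor on both arrays, 11 had all of them on 1 side of 0 and 11 did not. The difference between the highest and the lowest log2 ratio of such a gene had a median of 0.27 and exceeded the scatter of 0.29 for 10 genes. The scatter describes a single ratio, and a difference across 2 or more probe sets is expected to be wider. This difference was largest for E2f1, at 1.10, and smallest for Cdkn1a, at 0.0039. Agreement between probe sets was thus close for Cdkn1a and absent for E2f1.

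The wider pathway was read from 134 other gene names, of which 131 had a value and 128 were above the floor on at least 1 array. Their median log2 ratio was 0.02, which was -0.01 after loess and -0.03 after quantile normalization. Above 0 were 69 (53.9%, beside 54.1% of all genes), and 59 were below. Past 2-fold was 1 gene (0.781%, against 1.81% of all genes): Kif4, a chromosome-arm motor, read 5.15, below the floor, on the control siRNA array and 7.66 on the HDAC9 siRNA array, at least 2.50-fold higher. Past 1.5-fold were 8 higher and 4 lower, together 9.38%, a share close to the 10.6% of all genes.

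Within that list, origin licensing and firing genes had a median of -0.0049 over 18 genes. Among its genes above the floor on both arrays, the largest ratios were those of Gins3, a subunit of the replicative helicase complex, at 0.98 and its partner Gins1 at -0.55; Cdc6, which loads the MCM helicase, was at -0.76 as a bound and was added after its value was seen. Replication fork genes had a median of -0.11 over 27 genes, with 10 above 0 (37.0%, beside 54.1% of all genes) and 17 below. Largest in size, and opposite in sign to that median, were the polymerase epsilon subunits Pole2 (0.78) and Pole (0.77). RB, E2F and DREAM factors had a median of 0.05 over 18 genes and 0 past 1.5-fold. Lin54, a DNA-binding DREAM subunit, was at 0.46 and the repressor E2f7 at 0.41. On the control siRNA array Gins3 (6.44), Pole (6.63) and E2f7 (6.89) were under the stricter floor of 6.92, close to background. Other CDK inhibitors and the CDC25 and WEE1 group had a median of -0.03 over 18 genes. Among those above the floor on both arrays, the inhibitor gene Cdkn1c (p57) read 13.36 and 12.76 (-0.60). Wee1, a kinase that restrains CDK1, was at -0.50. Pkmyt1 of this group was at -0.87 as a bound, below both, and was also added after its value was seen. Mitosis, kinetochore and cytokinesis genes had a median of 0.07 over 47 genes, with Ckap2 at 0.76 and the condensin gene Ncapg at 0.62 above the floor on both arrays.

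**Figure D4:**
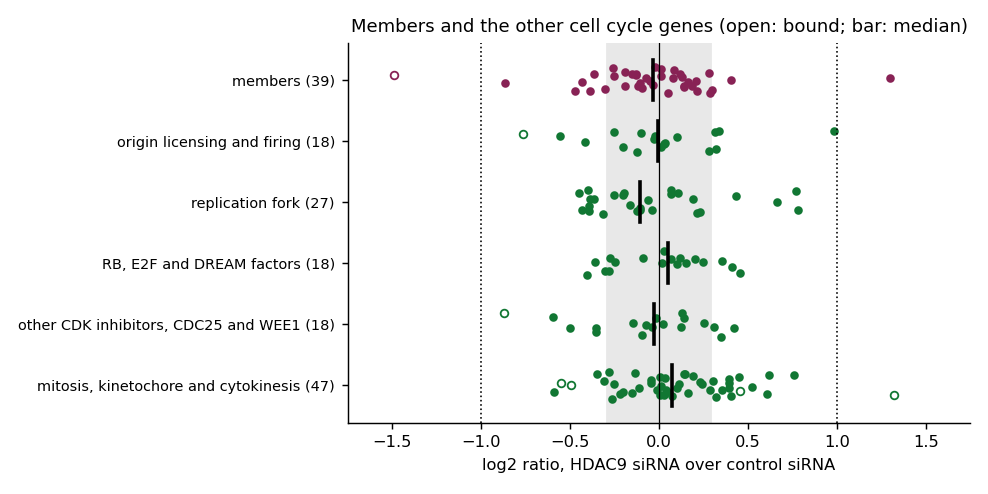
Log2 ratio, HDAC9 siRNA over control (x axis), for the 39 listed genes and for 5 groups of other cell cycle genes above background, each point a gene, open points bounds, black bars medians, the grey band the probe set scatter and dotted lines 2-fold. Group medians run from -0.11 to 0.07, and Kif4 at 1.32 is the only gene outside the first row past 2-fold.

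Target genes of p53 and genes that control macrophage growth and self-renewal were read as side lists. Of 18 p53 target genes above the floor on at least 1 array, 14 (77.8%) had a ratio above 0, beside 54.1% of all genes, and the median was 0.15, beside 0.03. Past 2-fold was 1 gene of the 18 (5.56%, beside 1.81% of all genes), the death receptor gene Fas, at 7.79 on the control siRNA array and 9.01 on the HDAC9 siRNA array (2.33-fold higher); Eda2r was at 0.64 and Sesn2 at 0.57. Of 18 genes that control macrophage growth and self-renewal, 14 (77.8%, beside 54.1% of all genes) had a ratio above 0, 0 were past 2-fold and the median was 0.18. In that list the growth factor genes of the CSF1 receptor differed in sign, with Csf1 at 0.46 and Il34 at -0.59. On the HDAC9 siRNA array Il34 read 6.53, also under the stricter floor. The repressor Bhlhe41 was at 0.46. Mycl read 3.25, below the floor, with the control siRNA and 7.21 with the HDAC9 siRNA. Its ratio of 0.87, a bound, was the highest of that list and was added after its value was seen.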

How the data were processed

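Expression was measured on 2 Affymetrix arrays, 1 per group, of total RNA taken 48 h after transfection; groups came from the labels. The authors deposited a log2 signal for each probe set, from 0 to 15.2. Per the submitters' processing notes, MAS5 was used, which condenses the probes of a set; its version, settings and detection calls were not given in the sources used here. Without the highest and lowest 2%, the mean linear signal was 497 on both arrays, so the authors' scaling was kept.

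Of 45037 probe sets, 34945 had 1 gene symbol in the platform annotation, 932 several and 9160 none; only the first kind was used, and 34741 matched the RefSeq table of GRCm38.p6 by gene identifier. A gene took its probe set with the highest mean linear signal. Signals under the floor (95th percentile of 80 receptor probe sets) were raised to it before ratios were taken, so a ratio with 1 signal under the floor is a bound. With 1 array per group no p-value and no standard deviation or interval between samples was computed, and precision is limited by the number of arrays. Calculations used Python 3.11.15, pandas 2.3.3 and statsmodels 0.14.6, and the steps were tested on simulated data.

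The genes, lists and rules were chosen with earlier results of these data known. Outside the 41 genes, the rule for named genes took the pathway, p53 and self-renewal genes past 2-fold. It added the 2 largest ratios per pathway role and the 3 largest per other list among genes above the floor on both arrays. Cdc6, Pkmyt1 and Mycl were named outside this rule. Alternatives were thresholds of 1.5-fold and 3-fold, loess (span 0.3), centring on the median, quantile normalization, the median over probe sets and the removal of those with suffix _s_at, _x_at or _a_at. Floors at the 99th and 75th percentiles were tried too, as was a pseudocount of 1 in place of a floor.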

Additional observations from a re-analysis of the deposited data

How the results depend on the processing

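No paired analysis was possible because each group has 1 array, and no array could be left out. The genes of the list past 2-fold numbered 1 with the floor at the 99th percentile, 1 by the median over probe sets and 0 at 3-fold; the other pathway genes past it numbered 2 and 0 with the floors at the 75th and 99th percentiles, 2 with no floor, 12 at 1.5-fold and 0 at 3-fold. All genes past the threshold numbered 917 and 137 with those floors, 3704 with no floor, 131 by the median over probe sets, 1281 at 1.5-fold and 16 at 3-fold. They split into 174 higher and 45 lower as reported, and into 120 and 58 after loess. The list's median was -0.080 after quantile normalization, and that of the other pathway genes was -0.0055 after centring, -0.032 after quantile normalization and -0.014 after loess. For a median, a shift larger than 0.29 divided by the square root of the number of genes was counted. That yardstick takes genes as independent, which genes read on the same 2 arrays need not be. It served only to choose which shifts are listed here. A lower floor tests more dim genes and a higher one fewer. A changed fold threshold alters the counts by itself, and centring lowers the HDAC9 siRNA signals by the all-gene median of 0.027. The cause of the other shifts was not tested. Of 307 alternative values for 39 genes of the list, 297 stayed within the probe set scatter and 10 moved farther; Foxm1 and Melk kept their sign under each. The number of genes of the list above background ran from 35 to 40 on the control siRNA array and from 34 to 40 on the HDAC9 siRNA array.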
